A study of Mus musculus with 4 samples.

Results

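The Krüppel-like factors (KLFs) form a family of zinc-finger transcription factors that bind GC-rich and CACCC-type DNA. The 8 family members Klf2, Klf3, Klf4, Klf5, Klf6, Klf9, Klf10 and Klf13, of 46078 mouse genes in the count tables, were followed by symbol and Ensembl identifier in single mouse ES cells. Cells of the E14 wild-type line were kept in 2i, sorted by forward and side scatter, and sequenced with the Smart-seq2 protocol 6 h after plating on laminin. 2i is a medium with inhibitors of the kinases MEK and GSK3 that holds ES cells in naive pluripotency, and N2B27 is the basal medium without them, in which the cells leave that state. The labels do not name LIF. The study names its culture medium as 2i/LIF and counts time from 2i/LIF removal, so the change to N2B27 may remove LIF too. The 4 samples were small cells in 2i, ungated cells in 2i, small cells in N2B27 and ungated cells in N2B27, each of 24 wells, and the small gate was set to take cells leaving mitosis or in G1. The study asked whether the moment of the cell cycle at which 2i/LIF is withdrawn changes how ES cells leave naive pluripotency.

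Klf2, Klf4 and Klf5 are part of the naive pluripotency network and can stand in for one another in self-renewal. Klf4 is a target of LIF and STAT3 signalling, Klf5 answers to LIF as well, and Klf2 is held at the protein level by inhibition of MEK, since ERK signalling leads to degradation of KLF2. Klf3 recruits the corepressor CtBP, Klf9 is known as a hormone-responsive gene, Klf6 and Klf10 are early-response genes, the latter induced by TGF-beta, and Klf13 binds GC boxes and was described as a regulator of chemokine genes.

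After a filter on counts, genes and mitochondrial share, 12 of 24 small 2i cells, 22 ungated 2i cells, 20 small N2B27 cells and 21 ungated N2B27 cells remained, with 1364155 to 4844170 counts on genes per cell. All 2i cells came from 1 plate and lane and all N2B27 cells from another, so that plate, lane and medium cannot be told apart. Each condition was 1 sample, so cells are not replicates, no p-value was computed and every difference below is a description of these samples. The median share of counts on the ERCC spike-ins, RNA added in a fixed amount so that a high share goes with little cellular RNA, was 3.47% in small 2i cells, 1.28% in ungated 2i cells, 2.45% in small N2B27 cells and 1.14% in ungated N2B27 cells. Small cells also held fewer genes, with medians of 7603.0 against 9515.5 in 2i and 7462.5 against 8200.0 in N2B27. Of the small 2i wells, 9 held more ERCC than gene counts, against 1 well in the 3 other samples together. Cells were placed in cell-cycle phases by the expression classifier cyclone, which put 6 of 12 small 2i cells and 6 of 20 small N2B27 cells in G1, against 0 of 22 and 2 of 21 ungated cells. Of 7 ES cell marker genes (Pou5f1, Sox2, Nanog, Zfp42, Esrrb, Dppa5a and Utf1), all 7 had cells with 10 counts or more in every sample. Their summed level per cell ran from 10297 normalized counts at the lowest to 220057 at the highest. The latter was in a small 2i cell, beside a median of 17734 in that sample, and the part of scaling in it was not tested. The 6 fibroblast markers and 4 markers of the 2-cell-like state reached 10 counts in 0 cells, whereas 2 or 3 of 7 primitive endoderm markers did so in 3 of the samples and 3 or 4 of 5 trophoblast markers did so in each sample. The median summed level of these last lists was at most 0.377 normalized counts. Their highest cells reached 533.5 for primitive endoderm (ungated N2B27) and 433.8 for trophoblast (ungated 2i).

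On GRCm38, as annotated by GENCODE M21, the network genes lie at chr8:72319033-72321656 on the plus strand (Klf2, ENSMUSG00000055148), chr4:55527143-55532466 on the minus strand (Klf4, ENSMUSG00000003032) and chr14:99298691-99315036 on the plus strand (Klf5, ENSMUSG00000005148). Klf6 (ENSMUSG00000000078, chr13:5861482-5870394, plus) and Klf10 (ENSMUSG00000037465, chr15:38291463-38300706, minus) overlap no other annotated gene, as do the network genes. Klf3 (ENSMUSG00000029178, chr5:64803388-64832901, plus) overlaps Gm20033 on the opposite strand and C230096K16Rik on its own. Klf9 (ENSMUSG00000033863, chr19:23141226-23168134, plus) overlaps Mir1192, and Klf13 (ENSMUSG00000052040, chr7:63886351-63938915, minus) overlaps Gm27252 and E030018B13Rik on the opposite strand. Reads in such overlaps may be lost or shared, so the levels of Klf3, Klf9 and Klf13 are less certain than the others.

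RefSeq promoter sequences on GRCm38.p6 were matched for 6 of 8 members, and those of Klf2 and Klf4 are shown because the results turn on these genes. Each line gives the 250 bases before the RefSeq start of transcription, 5′ to 3′ on the gene's strand, at chr8:72318812-72319061 (plus) for Klf2 and chr4:55532476-55532725 (minus) for Klf4. Capitals mark the KLF-type motif CACCC, the GC box GGGCGG and the MEF2 consensus, each searched on both strands, so that the reverse complements of these motifs are in capitals too.
Klf2: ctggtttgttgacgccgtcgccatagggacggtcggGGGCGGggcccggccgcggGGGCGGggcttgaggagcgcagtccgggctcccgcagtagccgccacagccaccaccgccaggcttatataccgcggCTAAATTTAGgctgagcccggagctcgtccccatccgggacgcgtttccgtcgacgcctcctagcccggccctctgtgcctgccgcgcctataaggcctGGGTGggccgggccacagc
Klf4: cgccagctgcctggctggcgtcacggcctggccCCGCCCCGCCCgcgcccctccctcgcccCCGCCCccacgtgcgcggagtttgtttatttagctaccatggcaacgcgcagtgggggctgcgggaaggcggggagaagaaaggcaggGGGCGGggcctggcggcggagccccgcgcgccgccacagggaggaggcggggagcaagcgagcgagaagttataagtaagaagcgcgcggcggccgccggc
The Klf2 promoter held 1 CACCC, 2 GGGCGG and 1 match to the MEF2 consensus, the binding motif of a family of factors that act downstream of MAP kinases. GENCODE starts Klf2 at 72319033, before the end of this window. The CACCC match therefore lies inside the gene as GENCODE annotates it. The Klf4 promoter held 4 GGGCGG, of which a pair overlap by a base, and 0 CACCC. Among 32851 RefSeq promoter windows of the same length, 52.0% held CACCC, 32.7% held GGGCGG and 2.92% held the MEF2 consensus. TTCNNNGAA, the form of site that STAT factors bind, was in 0 of these windows of Klf2 and Klf4, in 1 of the 6 matched members (Klf9), and in 7.02% of all windows. A match of letters is a description of the window and not a site shown to be bound.

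Per length of the annotated exons, Klf2 was the most abundant member, with 235.5 normalized counts per kb as the mean of the 4 groups. It was followed by Klf5 with 49.1, Klf10 with 37.5, Klf6 with 25.8, Klf9 with 12.5, Klf3 with 11.1, Klf4 with 8.44 and Klf13 with 6.50 on the same scale. The range over the 4 groups of each gene overlapped that of the next in this order, so no neighbouring ranks were set apart. The widest range was that of Klf2, from 72.3 in ungated N2B27 cells to 572.7 in small 2i cells, and the narrowest relative to its level was that of Klf10, from 33.8 to 44.1. The plot of single cells shows members that were at or near 0 in some cells and far above the median in other cells of the same sample.

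**Figure D1:**
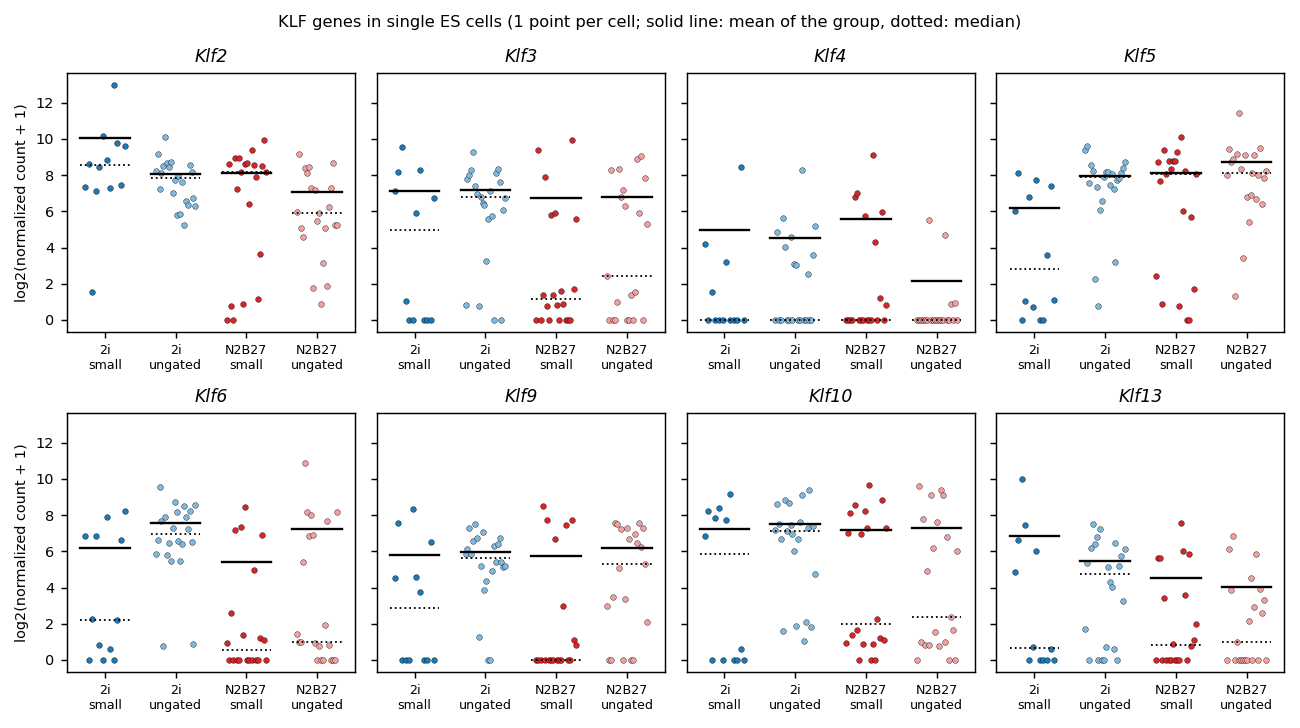
Normalized counts of the 8 KLF genes in each of the 75 cells, as log2(normalized count + 1) on the vertical axis, by medium and gate on the horizontal axis. Each point is a cell, the solid line is the group mean and the dotted line the group median, and Klf4 has a median of 0 in every group.

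Klf4 was present in a minority of cells in each of the 4 samples. At least 1 Klf4 count was found in 4 of 12 small 2i cells (33.3%, exact Clopper-Pearson 95% interval 9.92 to 65.1), 10 of 22 ungated 2i cells (45.5%, 24.4 to 67.8), 8 of 20 small N2B27 cells (40.0%, 19.1 to 63.9) and 4 of 21 ungated N2B27 cells (19.0%, 5.45 to 41.9). The intervals, which cover counting error only, all overlap. Wells with more ERCC than gene counts, which mark the background of wells with little RNA, held 0 Klf4 counts in 10 wells, but held 1 to 7 Klf2 counts in 8 of 10. A limit of 10 counts was therefore also used, which of all members only Klf10 passed in these wells, with 407 counts in 1 of them. At that limit Klf4 was held by 2 small 2i, 8 ungated 2i, 6 small N2B27 and 2 ungated N2B27 cells. When every cell was thinned to 1300000 counts, these numbers were 2, 5, 5 and 2. Among the small 2i cells that held Klf4, the cell with 45 Klf4 counts had 15712 genes and 0.0673% ERCC. The median of its sample was 7603.0 genes. That cell held all 8 members at 10 counts, as did some ungated 2i cells with 9429 to 9881 genes. Whether the small 2i cell was a single cell was not tested.

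The Klf4 counts of the cells that held any were 45, 1, 7 and 691 in small 2i cells. In ungated 2i cells they were 24, 72, 25, 21, 6, 11, 379, 5, 13 and 35. Both samples therefore had 1 cell far above the others, at 691 and 379 counts. In small N2B27 cells the counts were 156, 179, 58, 648, 21, 1, 87 and 1, and in ungated N2B27 cells they were 59, 26, 1 and 1. The sums were 744 counts (exact Poisson 95% interval 691 to 799), 591 (544 to 641), 1151 (1085 to 1219) and 87 (70 to 107) in the same order of samples, and reads without molecular identifiers are not independent molecules, so these intervals are too narrow. The highest cell held 92.6% of the normalized Klf4 sum in small 2i cells, 63.2% in ungated 2i cells, 59.7% in small N2B27 cells and 62.4% in ungated N2B27 cells.

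The mean Klf4 level was 46.3 normalized counts in small N2B27 cells and 3.37 in ungated N2B27 cells, a log2 ratio of 3.44 or 10.8-fold, while the ranges of the cells overlapped, since both groups held cells at 0. With the top cell of both groups left out the ratio was 3.15. In 2i the means were 30.8 in small and 22.5 in ungated cells, a log2 ratio of 0.44 that became -1.47 without the highest cell of each group. Ungated cells in N2B27 were lower than ungated cells in 2i by a log2 ratio of -2.43, and small cells in N2B27 differed from small cells in 2i by 0.57, or -0.31 with ERCC size factors.

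All 18 cells with 10 or more Klf4 counts also held 10 or more Klf2 counts, and 17 of them held 10 or more Klf5 counts. Among cells with fewer Klf4 counts, 9 of 10 small and 14 of 14 ungated 2i cells held Klf2 at 10 counts. In N2B27, 8 of 14 small and 16 of 19 ungated cells did. Klf5 was held by 3, 12, 8 and 18 of these cells in the same order, so nothing is drawn from the overlap. At that limit all of Klf2, Klf4 and Klf5 were held by 2 of 12 small 2i, 7 of 22 ungated 2i, 6 of 20 small N2B27 and 2 of 21 ungated N2B27 cells. Klf2 with Klf5 but without Klf4 was the most common state in ungated cells, with 12 of 22 cells in 2i and 15 of 21 in N2B27. Klf2 alone was the most common state in small 2i cells, with 6 of 12 cells against 2 of 22 ungated 2i cells. These 6 cells had 2.32, 2.64, 5.02, 11.1, 16.7 and 40.9% ERCC, and ungated 2i cells at most 2.42%. Of the 8 small 2i cells with at most 10% ERCC, 5 held Klf5 at 10 counts, so Klf2 alone was a minority there. No cell held Klf4 alone, and 1 of 12 small 2i cells, with 5769 genes and 17.1% ERCC, and 4 of 20 small N2B27 cells held none of these genes at 10 counts. The 4 N2B27 cells had 5603 to 6819 genes and 3.51 to 6.03% ERCC, against medians of 7760 genes and 2.34% in the other 16, and the part of RNA content in this was not tested.

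In small N2B27 cells, the 6 that held Klf4 at 10 counts were placed in S (3) and G2/M (3), and the 14 others in G1 (6) and S (8). Seurat's phase scores placed the same 6 cells in G1 (2), S (2) and G2/M (2), so the phase of the Klf4 cells depended on the method. These 6 cells held a median of 8447.5 genes against 6974.0 in the others and 1.37% against 3.11% ERCC. They held a median of 5.0 of the 7 other members at 10 counts, against 2.0 in the others. Of the naive genes, Esrrb had a median of 316.9 normalized counts in them against 7.61, Tfcp2l1, one of the earliest naive genes to be lost, reached 10 counts in 4 of 6 against 2 of 14, and Tbx3 did in 2 of 6 against 0 of 14. Whether the larger number of genes in these cells accounts for such differences was not tested. In ungated 2i cells, where depth was more even (medians of 9445.5 and 9594.5 genes), the 8 Klf4 cells held a median of 6.5 of the 7 other members and the 14 others a median of 6.0. There Tfcp2l1 was not higher in the Klf4 cells, with a median of 115.3 normalized counts against 137.0 and 10 counts reached in 7 of 8 against 14 of 14, and Esrrb had medians of 164.6 against 103.2. Tbx3 reached 10 counts in 7 of 8 against 11 of 14.

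**Figure D2:**
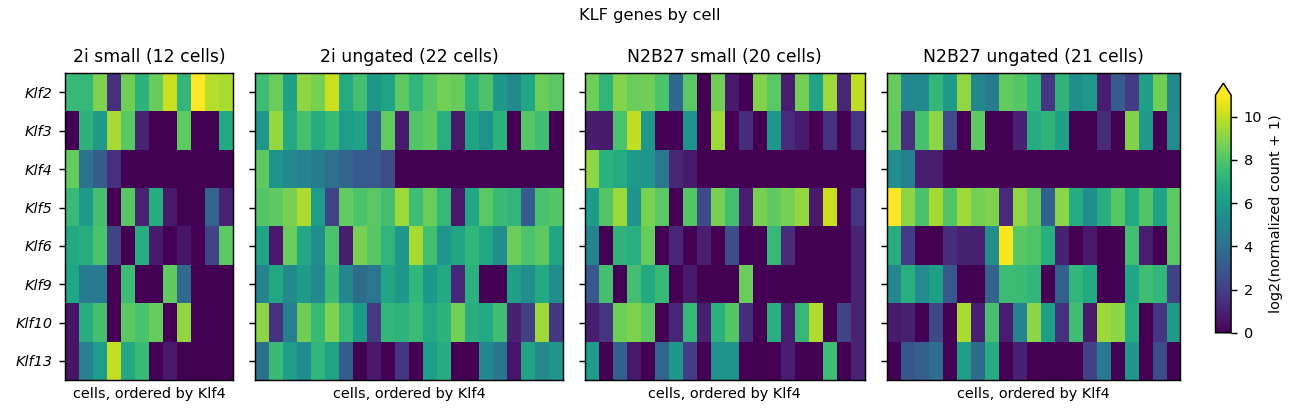
Levels of the 8 KLF genes (rows) in each cell (columns, ordered by Klf4 within each sample) as log2(normalized count + 1), with brighter colours for higher values. The 18 cells with 10 or more Klf4 counts, at the left of the panels, also hold Klf2, and 17 of them hold Klf5. Most cells under that limit hold Klf2 and Klf5 too.

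Klf2 was held at 10 counts or more by 11 of 12 small 2i, 22 of 22 ungated 2i, 14 of 20 small N2B27 and 18 of 21 ungated N2B27 cells. Small 2i cells ran from 1.88 to 8069 normalized counts with a median of 372.1, and ungated 2i cells from 36.5 to 1103 with a median of 227.8. Small N2B27 cells ran from 0 to 984.8 with a median of 286.7, and ungated N2B27 cells from 0.824 to 581.7 with a median of 58.3. The ranges of all 4 samples overlapped, and the means were 1058, 267.9, 280.8 and 133.5 normalized counts. Small cells were higher than ungated cells by a log2 ratio of 1.98 in 2i and 1.07 in N2B27. N2B27 cells were lower than 2i cells by -1.91 among small cells and by -1.0 among ungated cells, the latter just short of 2-fold, and by -1.41 over both gates.

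The Klf2 mean of small 2i cells rested on 1 cell. The 12 small 2i cells held 1.88, 137.5, 153.0, 159.8, 174.2, 351.8, 392.3, 462.1, 784.1, 881.0, 1127 and 8069 normalized counts, and the last of these was the cell with the highest ERCC share, 40.9%. That cell had 1560920 counts but only 4612 genes, and the size factor, by which counts were divided, was 0.133 for it against 0.532 to 2.60 in the 11 others. Its 1071 Klf2 counts were 14.5% of the Klf2 counts of the sample but 63.6% of the normalized sum. Scaled to the counts on genes, it held 686.1 CPM (counts scaled to a fixed total on genes), against 0.707 to 635.2 in the 11 others, so on that scale it was the highest cell by a narrow margin. All 7 other members had 0 counts in it, as did 54.5% of the 7902 genes that averaged 20 normalized counts or more in the 11 others. Klf2 was higher in this cell than in the mean of the others by a log2 ratio of 4.26, and 364 of those 7902 genes (4.61%) were as far above or further, whereas the median gene was at -5.07.

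Without this cell, and with size factors computed anew, the log2 ratio of N2B27 to 2i over both gates was -0.63 in place of -1.41. The ratio of small N2B27 to small 2i cells was then -0.58 in place of -1.91, and that of small to ungated 2i cells was 0.65 in place of 1.98. Without the 4 small 2i cells over 10% ERCC, an alternative chosen after seeing the data, these 3 ratios were -0.45, -0.20 and 0.29. With CPM and all cells kept, they were -0.80, -0.92 and 1.06, and with the pooled size factors of scran, which gave this cell 0.287, they were -1.07, -1.38 and 1.55. The direction was the same in these settings, and the size was at least 2-fold for all 3 ratios with scran and for 1 of them with CPM. The comparison of ungated cells does not hold this cell, and its -1.0 came with medians of 58.3 in N2B27 and 227.8 in 2i. Over 15 alternatives it ran from -1.83 with means of log2 values to -0.47 with poscounts size factors. It was at least 2-fold in 8 of them.

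**Figure D3:**
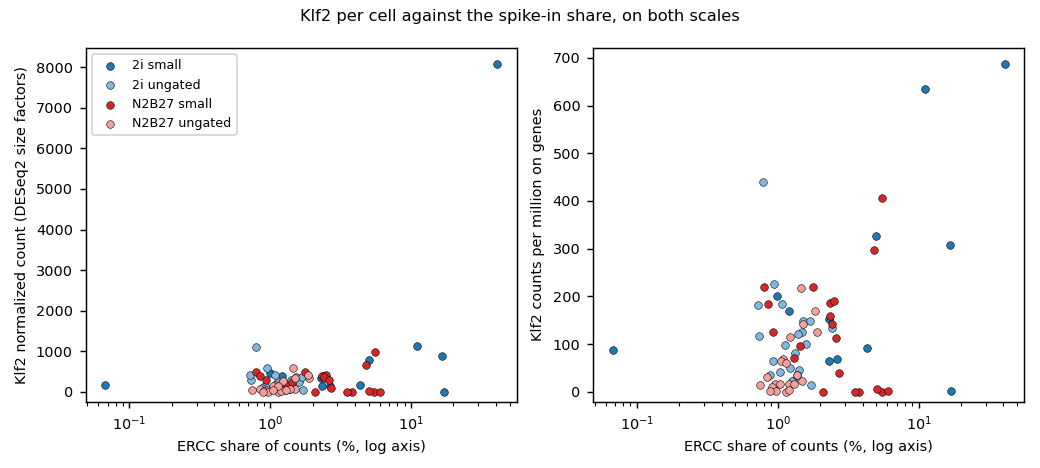
Klf2 in each cell as normalized counts (left) and CPM (right) against the ERCC share of the cell's counts in percent on a log axis, coloured by sample. The small 2i cell at 40.9% ERCC stands at 8069 normalized counts, far above all others, but at 686.1 CPM next to a cell at 635.2 CPM.

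Klf5 was lowest in small 2i cells. Its mean was 70.8 normalized counts there, 251.2 in ungated 2i, 279.2 in small N2B27 and 420.5 in ungated N2B27 cells. Small 2i cells ran from 0 to 279.0 with a median of 6.03, and only 5 of 12 reached 10 counts, against 19 of 22 ungated 2i, 14 of 20 small N2B27 and 20 of 21 ungated N2B27 cells. The medians of these 3 samples were 235.2, 263.4 and 280.7 and their highest cells 791.5, 1108 and 2742, so all samples overlapped. The log2 ratio of small to ungated cells was -1.81 in 2i and -0.59 in N2B27, and that of N2B27 to 2i was 1.96 in small and 0.74 in ungated cells. With ERCC size factors the ratio of small to ungated 2i cells was -0.51 and that of small N2B27 to small 2i cells 0.24, both under 2-fold. Each of these signs was the opposite of that of Klf2 in the same comparison, and the comparisons share samples. Of the 8 small 2i cells with at most 10% ERCC, 5 held Klf5 at 10 counts.

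Klf6 and Klf10 stand for the early-response members. Klf6 was lower in small than in ungated cells in both media, with log2 ratios of -1.35 in 2i, which was 0.39 with ERCC size factors, and -1.87 in N2B27. Its means were 72.9, 187.2, 40.8 and 152.1 normalized counts in small 2i, ungated 2i, small N2B27 and ungated N2B27 cells. It reached 10 counts in 20 of 22 ungated 2i cells, where the median was 123.0 and the highest cell 753.9, and in 5 of 12 small 2i cells, where they were 3.70 and 303.4. In N2B27 it reached 10 counts in 5 of 20 small cells (median 0.448, highest 351.1) and in 8 of 21 ungated cells (median 1.01, highest 1884). The highest ungated N2B27 cell held 59.0% of that sample's normalized sum, so the mean of 152.1 stood beside a median near 1 count, and the lowest cells of all samples were at or under 0.679. Klf10 had means of 146.8, 184.1, 141.1 and 154.7 in the same order, with log2 ratios from -0.32 to -0.06 in the 4 comparisons. Its share of cells at 10 counts was nevertheless 17 of 22 in ungated 2i cells, and 6 of 12, 9 of 20 and 10 of 21 in the other samples. The Klf10 medians were 57.1, 139.3, 2.97 and 4.20 and the highest cells held 569.7, 674.6, 820.6 and 777.2, so the samples overlapped and near-equal means came with different numbers of cells.

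Klf3, Klf9 and Klf13 differed among themselves. Klf13 had means of 115.8, 43.4, 21.6 and 15.1 normalized counts in small 2i, ungated 2i, small N2B27 and ungated N2B27 cells. It was lower in N2B27 than in 2i by log2 ratios of -2.37 (small cells) and -1.47 (ungated cells). Between small and ungated 2i cells its log2 ratio was 1.40, which became -0.13 without the top cell of both groups and -0.73 with means of log2 values. The ratio in small cells was -1.32 without the top cell of both groups, -1.07 without cells over 10% ERCC and -0.91, under 2-fold, with means of log2 values. The small 2i mean rested on a cell with 1020 normalized counts, 73.5% of the sum, and 17.1% ERCC, while the median there was 0.580. In ungated 2i cells the median was 26.2 and the highest 179.2, with 14 of 22 cells at 10 counts, and in ungated N2B27 cells they were 0.993 and 115.4, with 7 of 21. Small N2B27 cells had a median of 0.760, a highest cell of 188.4 and 7 of 20 cells at 10 counts.

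Klf3 had means of 138.2, 144.8, 103.9 and 110.1 and log2 ratios from -0.41 to -0.07 in the 4 comparisons. Its cells ran from 0 to 996.8, with medians of 30.1, 108.4, 1.24 and 4.34, and it reached 10 counts in 6 of 12, 18 of 22, 6 of 20 and 10 of 21 cells. Klf9 had means of 54.3, 62.0, 53.4 and 71.3 and log2 ratios from -0.41 to 0.20. Its medians were 6.31, 49.4, 0 and 38.8, its highest cells held 316.1, 181.3, 362.1 and 191.0, and it reached 10 counts in 6 of 12, 19 of 22, 5 of 20 and 14 of 21 cells. For both genes the means differed by less than 2-fold between samples whose shares of cells differed more. The share of cells at 10 counts was lower in the small cells of both media for Klf2, Klf3, Klf5, Klf6, Klf9 and Klf10. For Klf10 in N2B27 the shares were 45.0% in small and 47.6% in ungated cells. Small cells held fewer genes in both media, and this was not counted over all genes, so nothing is drawn from it.

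Counted together, the 8 members split in direction in every comparison. Between small and ungated N2B27 cells, 2 members (Klf2, Klf4) were at least 2-fold higher and 1 (Klf6) at least 2-fold lower, where 12.8% of 8704 genes, those whose mean over both groups was 20 normalized counts or more, were that much higher and 16.4% lower. Between small and ungated 2i cells, 2 members (Klf2, Klf13) were higher and 2 (Klf5, Klf6) lower, against 17.6% and 26.0% of 8541 genes. Between N2B27 and 2i, 1 member (Klf5) was higher and 2 (Klf2, Klf13) lower among small cells, against 22.1% and 19.2% of 8455 genes. Among ungated cells 0 members were higher and 2 (Klf4, Klf13) lower, against 8.05% and 9.42% of 8682 genes. Klf13 in the first and Klf4 in the last comparison did not pass the minimum mean. Of the 7 members that passed in the last, 0 were at least 2-fold higher and 1 (Klf13) lower. In the first, Klf4 passed only through its mean of 46.3 in small N2B27 cells, beside 3.37 in ungated ones, which tilts that count. The median log2 ratio of the members was -0.11, -0.13, -0.23 and -0.35 in this order of comparisons, beside -0.10, -0.31, 0.08 and -0.02 for all genes. Such shares rest on few members, and nothing particular to the family is drawn from them. The comparisons share samples, so they are not separate evidence.

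**Figure D4:**
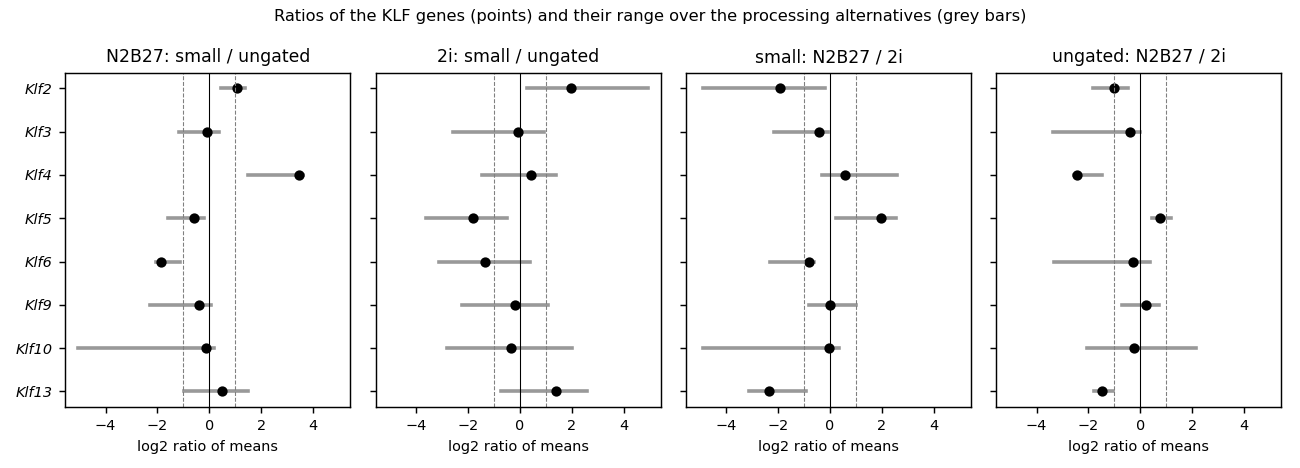
Log2 ratio of mean normalized counts for each KLF gene (vertical axis) in the 4 comparisons (panels), as black points, with grey bars from the lowest to the highest value over 15 processing alternatives and dashed lines at 2-fold. Klf4 in the N2B27 and ungated panels, Klf6 in the N2B27 panel and Klf13 in the ungated panel stay beyond the 2-fold lines. Klf9 and Klf10 span both directions in all panels.

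The number of members that a cell held at 10 counts had a median of 3.5 in small 2i, 6.0 in ungated 2i, 3.0 in small N2B27 and 4.0 in ungated N2B27 cells, and a range from 0 to 8. In small cells it rose with the number of genes detected. Spearman's rho was 0.905 over the 12 small 2i cells and 0.790 over the 20 small N2B27 cells. With the ERCC share rho was -0.905 and -0.806, and with total counts 0.641 and 0.425. In ungated cells rho with genes was 0.448 in 2i and 0.274 in N2B27, and with the ERCC share -0.399 and -0.209. With total counts it was -0.390 and -0.464, opposite in sign to small cells. The members are themselves among the genes detected, and no other set of genes was counted, so nothing particular to the family is drawn from this. Cells of a sample share a plate and depth varies between them, and these values are descriptions. Fewer members in a small cell and less RNA per cell cannot be told apart here. Between pairs of members, with levels ranked within each sample, rho over the 75 cells lay between -0.11 and 0.27, the highest of these for Klf4 with Klf5.

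Ranked in the same way, the genes most like Klf2 among 8739 compared were Srsf2, a splicing factor (rho 0.55), Cdc34, a ubiquitin-conjugating enzyme (0.49), and Eif3h, a translation initiation factor (0.44). Those most like Klf4 were Bcam, a cell adhesion molecule (0.49), Apbb1, an adaptor protein (0.47), and Actn4, an actin crosslinker (0.47). Those most like Klf5 were Ecd (0.52), Nampt, an enzyme of NAD synthesis (0.48), and Cfap36 (0.47). All these values are over 75 cells that share plates and vary in depth, and are the highest of many.

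Of the 18 other KLF and SP family genes, 4, 7, 5 and 5 passed the minimum mean in the N2B27 gate, 2i gate, small and ungated comparisons. The counts of this and the next lists are over the genes that passed, are read beside the shares of all genes given above, and support nothing by themselves. Of those, 1 was at least 2-fold higher and 2 lower, 1 higher and 3 lower, 1 higher and 1 lower, and 0 higher and 2 lower. Sp2, the most abundant, was lower in small than in ungated cells, as Klf6 was, with log2 ratios of -1.73 in N2B27 and -1.38 in 2i. Klf15 did likewise, with -1.19 and -1.08, and Sp3, an abundant GC box factor, had 0.56 and -0.21.

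Among 8 genes of the LIF and STAT3 pathway that drives Klf4, 5, 4, 4 and 6 passed the minimum mean. In N2B27, 1 was at least 2-fold higher and 0 lower in small cells, and in 2i 1 was higher and 1 lower. Between media, 2 were higher and 0 lower in small N2B27 cells, and 0 higher and 1 lower in ungated N2B27 cells. Pim1, a kinase induced by STAT3, was at 1.16 in small and 0.84 in ungated cells, and Pim3 at -0.41 and -0.11. Of 13 partners of the KLFs in the naive network, 13, 13, 12 and 13 passed. In the gate comparisons 3 were higher and 1 lower in N2B27, and 3 higher and 2 lower in 2i. Between media 0 were higher in either gate, and 2 were lower in small and 4 in ungated cells. Zfp42 (Rex1), a marker of the naive state, was at 0.35 and 0.38 between media, and Nr0b1 at 0.91 and 0.32.

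Of 15 early-response genes of ERK and serum signalling, with which Klf6 and Klf10 are often grouped, 10 passed the minimum mean in each comparison of media. Of those that passed, 7 were at least 2-fold higher and 0 lower in small N2B27 cells, beside 22.1% and 19.2% of all genes tested, and 6 were higher and 0 lower in ungated N2B27 cells, beside 8.05% and 9.42%. Only 5 of the 15 passed between the 2i samples, so some genes entered the media comparisons through their level in N2B27, which tilts these counts, and nothing is drawn from them. Klf6 was at -0.82 and -0.30 and Klf10 at -0.06 and -0.25 between media. The most abundant of the list, Etv5 and Ier2, were at -0.58 and 1.09 in small cells and at 0.12 and 0.21 in ungated cells. In the gate comparisons 11 and 5 passed, of which 1 was higher and 2 lower in N2B27, and 2 higher and 0 lower in 2i.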

How the data were processed

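Single-cell RNA sequencing of 4 samples of mouse ES cells was analysed, with 24 cells in each. Per the labels and the methods of the study, the authors trimmed reads with Trim Galore 0.4.4, aligned them to GRCm38 (mm10) with GSNAP, counted them on genes of Ensembl release 81 with HTSeq, and deposited raw counts per gene and cell that were neither normalized nor filtered. HTSeq leaves out reads that fall on more than 1 gene, and its strand setting is not given in the sources used here. The columns are named by index pairs, 48 of which occur on both plates, and were matched to samples through the authors' run list, deposited with the counts. Rows without a gene were kept out of totals, and ERCC spike-ins held 3.85% of counts, reads on no feature 4.81%, ambiguous reads 6.77% and unaligned reads 11.1%.

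Cells were filtered per plate at 3 median absolute deviations with scater 1.30.1. Counts were divided by size factors from DESeq2 1.42.0, computed over 1227 genes with a count in all 75 kept cells. A ratio is the log2 ratio of 2 group means after adding 1 to each. DESeq2's test was not run, since each condition is 1 sample. Phases came from cyclone in scran 1.30.0 and from Seurat 5.3.0. Intervals are 95% intervals. Members of the KLF family with other gene lists were chosen with earlier results of these data known. Named outside the members were the 3 most abundant other KLF and SP genes, the 2 most abundant genes of each other list, and the 3 genes most like Klf2, Klf4 and Klf5. Other cell filters, scalings, pseudocounts and fold limits, thinning and leaving out cells were tried. The ratio of 2 group means was tested on simulated Poisson counts with known size factors. That simulation did not cover the cell filter, the size factors, the phases or the uneven levels between cells seen here. No doublet caller was run on the singly sorted cells.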

Additional observations from a re-analysis of the deposited data

Results flagged for a closer look

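Klf4 had opposite signs between media in the 2 gates: the log2 ratio of N2B27 to 2i was 0.57 in small cells and -2.43 in ungated cells. The difference was not tested, since each condition is 1 sample and the samples' cells overlap. The value in small cells was 2.56 without the highest cell of each group and -0.31 with ERCC size factors, so its sign depended on the setting, whereas the value in ungated cells ran from -2.57 to -1.47 over 15 alternatives.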

How the results depend on the processing

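Of 32 ratios of members, 12 were at least 2-fold, of which 10 kept their direction over 15 alternatives and 4 stayed at least 2-fold in all. The exceptions in direction were between small and ungated 2i cells, where Klf13 was at -0.73 with means of log2 values and -0.13 without the highest cell of each group, and Klf6 was at 0.39 with ERCC size factors, a setting in which the median of all genes was 0.80. With ERCC size factors that median was -0.84 between small and ungated N2B27 cells and -1.58 between media in small cells, and with poscounts size factors it was 0.37, 0.51, 0.24 and 0.43 in the 4 comparisons, so members are to be read against these. The Klf2 ratio of N2B27 to 2i over both gates was -1.23 with no filter on cells, -3.96 with fixed limits, -0.80 with CPM, -1.07 with scran, -1.50 with poscounts, -1.23 with ERCC size factors, -0.68 with pooled counts, -1.84 with means of log2 values, -0.74 without the highest cell of each group, -0.63 without the cell of highest ERCC share, -0.82 after thinning and -0.45 without cells over 10% ERCC. The Klf4 ratio of small to ungated N2B27 cells was 2.94 with no filter, 3.13 with CPM, 1.48 with means of log2 values, 2.62 with a pseudocount of 5 and 3.11 after thinning. The 3 members at least 2-fold apart in that comparison became 1 at a limit of 4-fold, and 5 with no filter and with means of log2 values. The causes were not tested.

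Genes at least 2-fold higher and lower numbered 1118 and 1424 between small and ungated N2B27 cells, with 578 to 2077 and 688 to 4365 over the alternatives, so that 44.0% were higher in place of 11.8% (ERCC) to 73.0% (poscounts). In 2i they numbered 1501 and 2218 (314 to 4691 and 632 to 2984), with 40.4% higher (9.52 to 88.1%). Between media they numbered 1866 and 1627 in small cells (344 to 2322 and 570 to 8027), with 53.4% higher (4.11 to 73.5%), and 699 and 818 in ungated cells (328 to 1531 and 211 to 1243), with 46.1% higher (31.4 to 85.1%). No paired analysis was possible because each condition is 1 sample. Depth limits the rarest member: a cell without Klf4 reads is not shown to lack its RNA.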
